A study of Mus musculus with 4 samples.

Results

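Cytosolic ribosomal proteins are the protein parts of the ribosomes that translate nuclear mRNAs. They are made in near equal amounts in every cell, each usually from 1 active gene among many inactive copies. Their mRNAs begin with a run of pyrimidines, the 5′ terminal oligopyrimidine (TOP) motif, through which mTOR signalling controls their translation, and a T cell that is activated makes more ribosomes before it divides. The binding of Runx3, a RUNX family transcription factor needed for CD8 T cell development, was described here at the genes of these proteins. Protein-coding genes were taken from the RefSeq annotation of GRCm38.p6 (mm10) when their symbol was Rpl or Rps followed by a number, or was Rplp0, Rplp1, Rplp2 or Rpsa; the kinases named after Rps6 were left out. This gave 91 of 21883 protein-coding genes.

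Of the 91, 77 are standard ribosomal protein genes, 31 of the small subunit and 46 of the large subunit. The other 14 were taken in by symbol alone. They are 7 paralogs (Rpl3l, Rpl7l1, Rpl10l, Rpl22l1, Rpl36al, Rpl39l and Rps27l), 4 genes with the symbols of retroposed or like copies (Rps23rg1, Rpl37rt, Rps27rt and Rpl32l), 2 with pseudogene symbols (Rpl34-ps1 and Rpl31-ps12), and Rps19bp1, whose product binds Rps19 and is not a ribosomal protein. The genes lie on 19 chromosomes, 14 of them on chromosome 7, and have a median length of 3175 bp. Genes of small nucleolar RNAs, which guide the modification of rRNA, lie inside 30 of the 77 standard genes.

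The cells were CD8 T cells from spleens of adult wild type mice, collected with magnetic beads against CD8a. The ChIP library came from 50000000 frozen cells of 5 mice and the CUT&RUN library, in which an antibody tethers a nuclease that releases nearby DNA, from 150000 fresh cells of 1 mouse. Both used a rabbit antiserum against Runx3 at 1:200. A whole cell extract served as control for the ChIP peaks, the CUT&RUN peaks had none, and the library made with normal rabbit serum was not analysed here. After duplicates were removed, 9532996 fragments gave the 13166 peaks of the ChIP list, and 14068364 gave the 15891 of the CUT&RUN list. There was 1 library per assay, so no difference here has a replicate check or a p-value, and assay, cell number, freezing, mice and peak thresholds cannot be told apart. A gene counted as having a peak when a summit lay within 1 kb of either of its ends. The height of a peak is its pileup, the number of fragments over the summit, and ranks run from the strongest peak of a list by q value; these are the authors' own values and are not compared between lists. Intervals of pileups are exact 95% Poisson intervals. They cover only the counting error of fragments left after duplicate removal, and not variation between libraries.

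The promoters that carried a summit of both lists close to a RUNX core, the letters that RUNX proteins are known to recognise, are shown first. They were chosen for that closeness, so the short distances follow from the choice. The core was searched as TGTGGT or TGCGGT on both strands, which read ACCACA or ACCGCA on the other strand, in the 300 bases from 250 before to 50 after each annotated start. RefSeq promoter sequences of GRCm38.p6 matched 70 of the 91 genes, with 82 starts. Of the 82 promoters, 12 (14.6%) held a core, against 21.6% of 21262 promoters of all protein-coding genes. In 8 of the 12 (66.7%) a summit of each list lay within 100 bp of the core, against 15.8% of the 4585 core-holding promoters of all protein-coding genes. Their stretches around the core follow, in the direction of the gene, with the core in capitals.
Rps3a1, chr3:86142775-86142900, minus strand: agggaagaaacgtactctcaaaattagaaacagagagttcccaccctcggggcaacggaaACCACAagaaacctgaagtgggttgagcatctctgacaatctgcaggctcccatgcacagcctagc
Rps2, chr17:24719963-24720088, plus strand: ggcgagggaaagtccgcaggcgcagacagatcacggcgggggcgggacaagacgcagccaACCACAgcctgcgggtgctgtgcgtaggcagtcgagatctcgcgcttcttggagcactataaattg
Rpl18, chr7:45717904-45718029, plus strand: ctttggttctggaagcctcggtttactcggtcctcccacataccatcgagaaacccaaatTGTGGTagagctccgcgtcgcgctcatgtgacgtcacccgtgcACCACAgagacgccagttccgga
Rps12, chr10:23787341-23787459, minus strand: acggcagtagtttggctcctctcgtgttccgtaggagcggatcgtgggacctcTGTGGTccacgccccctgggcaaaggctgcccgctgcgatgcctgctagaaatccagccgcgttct
Rpl37, chr15:5116363-5116472, plus strand: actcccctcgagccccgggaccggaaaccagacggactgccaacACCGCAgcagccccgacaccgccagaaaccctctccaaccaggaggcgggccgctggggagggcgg
Rpl27a, chr7:109518945-109519015, plus strand: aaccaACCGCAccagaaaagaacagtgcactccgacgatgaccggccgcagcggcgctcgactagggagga
Rps25, chr9:44407665-44407743, plus strand: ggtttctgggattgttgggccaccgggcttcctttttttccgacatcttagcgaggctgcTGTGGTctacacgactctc
Rpl7a, chr2:26910557-26910679, plus strand: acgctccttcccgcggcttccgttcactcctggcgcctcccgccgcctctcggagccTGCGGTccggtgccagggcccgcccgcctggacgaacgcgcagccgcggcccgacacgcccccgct

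In Rps3a1, which encodes a small subunit protein, the ACCACA shown lay 4 bp from the ChIP summit and 1 bp from the CUT&RUN summit, and the summits were 3 bp apart. In Rps2, a small subunit protein gene, the distances were 8 and 7 bp. Rpl18, a large subunit protein gene, held both a TGTGGT, 16 and 29 bp from the ChIP and CUT&RUN summits, and an ACCACA, 27 and 14 bp from them. Among the other 5 genes the core lay 16 to 100 bp from the ChIP summit and 52 to 76 bp from the CUT&RUN summit. The core of Rps28, a small subunit protein gene, lay 41 bp from a ChIP summit, with no CUT&RUN summit nearby. The remaining cores, in Rpl6, Rpl37rt and Rps27rt, had no summit of either list within 1 kb. A match is a description of letters and not a binding site.

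Of the 91 genes, 40 (44.0%) had a ChIP summit within 1 kb of an end, against 22.9% of all protein-coding genes. A CUT&RUN summit lay there in 53 (58.2%), against 27.2%. Both lists had a summit at 36 genes (39.6%, against 18.3%). A ChIP peak overlapped a CUT&RUN peak at 31 of the 91 genes (34.1%), against 17.1% of all protein-coding genes. Among genes with both, these were 31 of 36, against 3732 of 4004 protein-coding genes. Summits of either list stood at 57 genes (against 31.8% of protein-coding genes), and 34 genes had none. The 319 pseudogenes with an Rpl or Rps symbol ending in -ps had no summit in either list within 1 kb. This count was not made over other pseudogenes, so whether it is unusual cannot be told. The sources used here do not say how reads that fit several copies were placed, so peaks at genes with near-identical copies are uncertain.

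Of the 31 standard small subunit genes, 16 (51.6%) had a ChIP summit, 21 (67.7%) a CUT&RUN summit and 14 (45.2%) both. Of the 46 standard large subunit genes, the counts were 22 (47.8%), 28 (60.9%) and 21 (45.7%). Of the 14 copies, paralogs and other genes, 2 (14.3%) had a ChIP summit, 4 (28.6%) a CUT&RUN summit and 1 (7.14%) both, beside 22.9%, 27.2% and 18.3% of all protein-coding genes. Standard genes that host small nucleolar RNA genes had a CUT&RUN summit in 23 of 30 (76.7%) and a ChIP summit in 16 (53.3%), and those that do not had them in 26 of 47 (55.3%) and 22 (46.8%). None of the 4 genes on X (Rpl10, Rpl39, Rps4x and Rpl36a) had a ChIP summit, and Rpl10 alone had a CUT&RUN summit; among the 966 protein-coding genes on X the shares were 5.59% and 14.2%.

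Peaks at these genes were of ordinary height for promoter peaks. The median ChIP pileup of the best-ranked peak at each of the 40 genes was 13.5 fragments (quartiles 10 and 16.2, range 7 to 35), against 12.0 at all protein-coding genes with a summit. The best rank was 394, and 5 of the 40 (12.5%) stood in the top 10% of the ChIP list, against 9.22% of protein-coding genes with a summit. The median CUT&RUN pileup at the 53 genes was 24 (quartiles 18.0 and 37.0, range 11 to 93), against 25. The best rank was 493, and 2 of the 53 (3.77%) stood in the top 10% of the CUT&RUN list, against 7.05%. The median width of these ChIP peaks was 365 bp, against 299.5 bp at all protein-coding genes with a summit, and that of these CUT&RUN peaks 177 bp, against 173 bp.

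**Figure D1:**
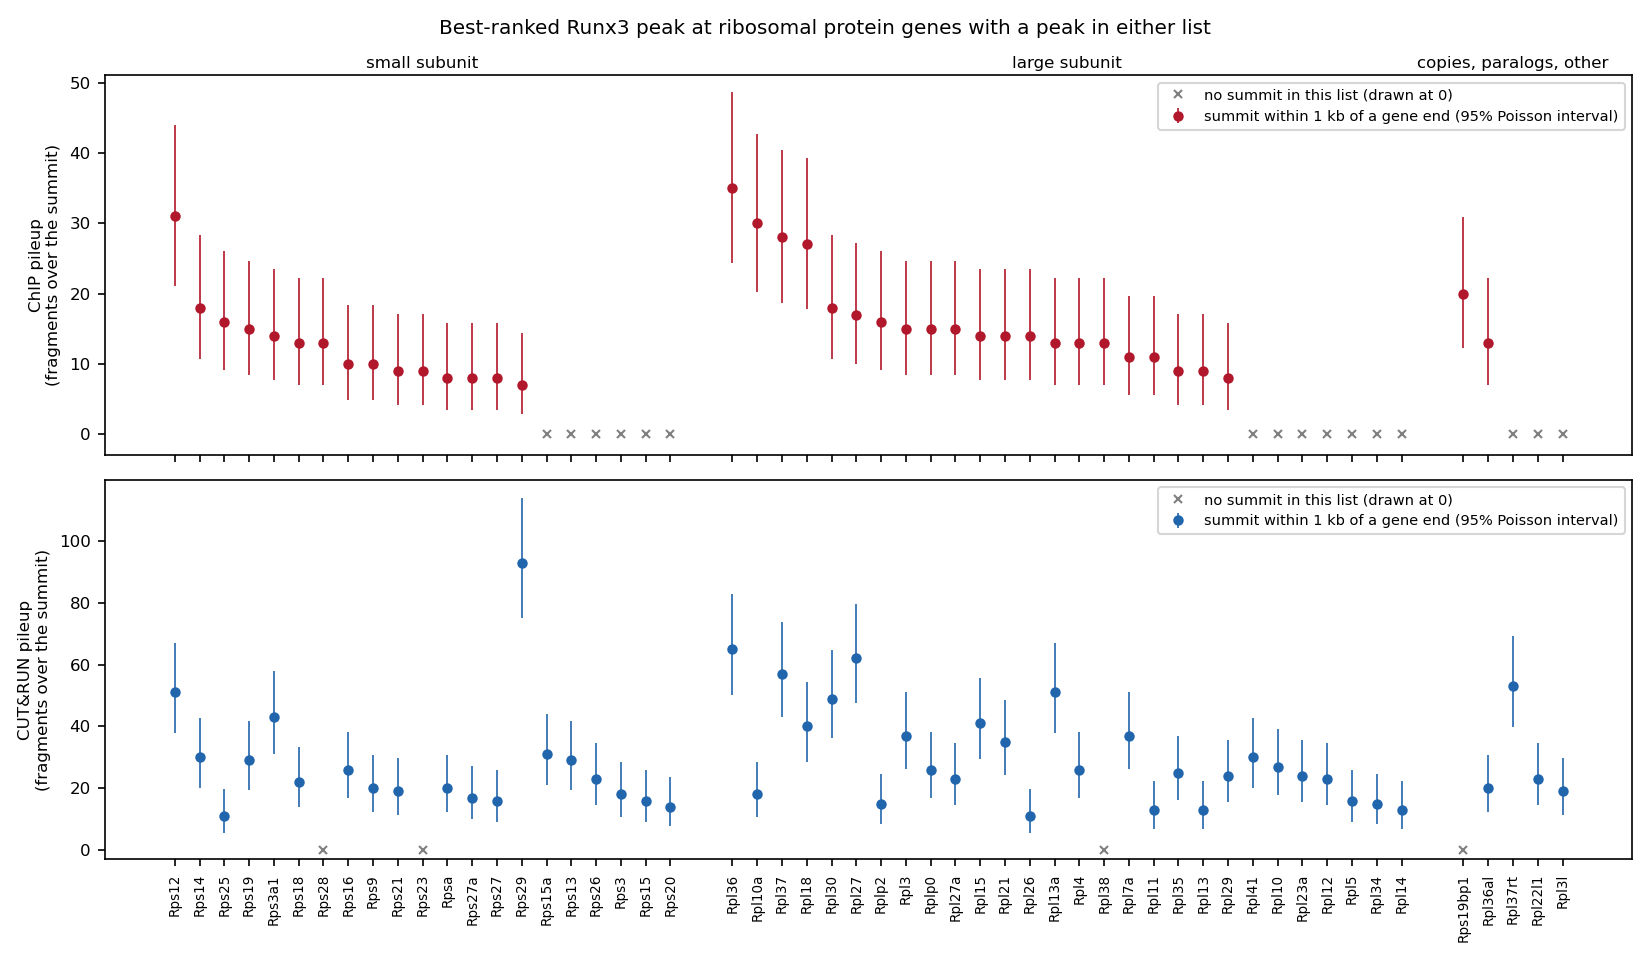
Pileup in fragments (y axis) of the best-ranked ChIP peak (top) and CUT&RUN peak (bottom) at genes with a summit in either list (genes not reported by name are not drawn), grouped by subunit and ordered by ChIP pileup, with exact 95% Poisson intervals; crosses drawn at 0 mark genes without a summit in that list and are not measured zeros. Rpl36 was highest in ChIP with 35 and Rps29 highest in CUT&RUN with 93.

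Among small subunit genes, Rps12 had the strongest ChIP peak. Its pileup was 31 (21.1 to 44.0, rank 575) in ChIP and 51 (38 to 67.1, rank 2256) in CUT&RUN, with summits at -175 and -136 bp from the nearest start, that is upstream of it. The annotated gene span reaches beyond that start, and the summits lay 1 and 38 bp from its end. Rps14, whose loss causes the anaemia of a myelodysplastic syndrome, had 18 in ChIP (10.7 to 28.4, rank 2677) and 30 in CUT&RUN (20.2 to 42.8, rank 5700). Rps3a1 had 14 in ChIP (7.65 to 23.5, rank 4755) and 43 in CUT&RUN (31.1 to 57.9, rank 2829). These 3 genes thus had overlapping peaks in both lists, strongest at Rps12.

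Rps29 was strong in 1 list at a place that lies nearer to another gene. Its CUT&RUN pileup was 93 (75.1 to 114, rank 493), the highest of the 91 genes, and its ChIP pileup was 7 (2.81 to 14.4, rank 12655), the lowest listed among them. The summits were 427 bp apart, the peaks did not overlap, and the CUT&RUN summit was 52 bp from Rn7s1, a gene of the RNA of the signal recognition particle.

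Rpsa, which encodes a small subunit protein also known as the laminin receptor, had weak peaks of 8 in ChIP (3.45 to 15.8) and 20 in CUT&RUN (12.2 to 30.9). Rps27a, whose protein is made as a fusion with ubiquitin, had 8 in ChIP and 17 in CUT&RUN, in peaks that did not overlap. Small subunit genes in the CUT&RUN list alone included Rps20, Rps3, Rps13, Rps15a, Rps15 and Rps26, with pileups from 14 at Rps20 to 31 at Rps15a. Rps23 and Rps28 were in the ChIP list alone, with 9 and 13. Genes with no summit listed within 1 kb of an end included Rps6, Rps7, Rps24, Rps2, Rps10 and Rps4x; Rps6 encodes the subunit protein that S6 kinases phosphorylate.

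Among large subunit genes, Rpl36 had the strongest peak of all 91 genes in ChIP, with a pileup of 35 (24.4 to 48.7, rank 394), and 65 in CUT&RUN (50.2 to 82.8, rank 1413). The summits were 344 and 283 bp outside the gene and 21 and 40 bp from an end of Micos13, which encodes a protein of mitochondrial cristae. Rpl37 had 28 in ChIP (18.6 to 40.5, rank 820) and 57 in CUT&RUN (43.2 to 73.9, rank 2351), with summits 134 and 77 bp from an end of Card6, nearer than its own. Both thus lie between neighbours, and the list cannot assign the summit to 1 gene.

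Rpl10a had 30 in ChIP (20.2 to 42.8, rank 661) and 18 in CUT&RUN (10.7 to 28.4, rank 9585). Rpl27 had 17 in ChIP (rank 2910) and 62 in CUT&RUN (47.5 to 79.5, rank 1656), with summits 96 and 106 bp downstream of its start. Rpl30 had 18 and 49 (36.3 to 64.8). All 3 genes had overlapping peaks, and for Rpl10a, Rpl27 and Rpl30 no other gene's end was nearer. Rpl13a, whose protein can leave the ribosome to repress translation, had 13 and 51, and Rpl15 had 14 and 41, its ChIP summit being nearer to Nkiras1.

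The P stalk, which binds elongation factors, is built from Rplp0, Rplp1 and Rplp2. Rplp0 had 15 in ChIP (8.40 to 24.7) and 26 in CUT&RUN (17.0 to 38.1), with summits 130 and 109 bp upstream of the start. Rplp2 had 16 in ChIP and 15 in CUT&RUN in peaks that did not overlap, with summits 345 bp apart, and Rplp1 had none. Rpl11 and Rpl5, which hold Mdm2 in check when ribosome assembly fails, differed in the lists: Rpl11 had 11 and 13, and Rpl5 had a CUT&RUN peak of 16 alone.

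Large subunit genes with a CUT&RUN summit alone were Rpl12, Rpl34, Rpl5, Rpl14, Rpl41, Rpl23a and Rpl10, with pileups from 13 at Rpl14 to 30 at Rpl41. Rpl38, whose protein favours translation of Hox mRNAs, had a ChIP summit alone, with 13. No summit within 1 kb of an end was listed for Rpl7, Rpl31, Rpl37a, Rpl22, Rpl9, Rpl6, Rpl32, Rpl28, Rplp1, Rpl23, Rpl19, Rpl8, Rpl35a, Rpl24, Rpl17, Rpl39 and Rpl36a. Of the 20 genes on a list of those mutated in Diamond-Blackfan anaemia, a failure of red cell formation, 10 (50%) had a ChIP summit, 13 (65%) a CUT&RUN summit and 9 (45%) both, beside 22.9%, 27.2% and 18.3% of all protein-coding genes. These 20 all belong to the 77 standard genes, whose shares were nearly the same, at 49.4%, 63.6% and 45.5%. The best-ranked of the 20 were Rpl18 and Rpl27 in ChIP and Rps29 and Rpl27 in CUT&RUN. Rps19, the most often mutated, had 15 and 29.

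Of the 14 copies, paralogs and other genes, 5 had a summit in either list, a share near the 31.8% of all protein-coding genes. Rpl36al, a paralog of Rpl36a, was the only one with both, at 13 in ChIP and 20 in CUT&RUN. Rpl22l1 had 23 and Rpl3l 19 in CUT&RUN alone, the latter nearer to Msrb1. Rpl37rt had a CUT&RUN pileup of 53 (39.7 to 69.3, rank 1861), 6873 bp from its start at the other end of the gene. Rps19bp1 had a ChIP pileup of 20 (12.2 to 30.9, rank 2081) 7 bp from its start and no CUT&RUN summit. Rpl7l1, Rpl10l, Rpl39l, Rps27l, Rps23rg1, Rps27rt, Rpl32l, Rpl34-ps1 and Rpl31-ps12 had none within 1 kb of an end.

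At the boundary of the 1 kb window, genes just inside it included Rpl38 in ChIP and Rpl29 in CUT&RUN. Rpl38 stood at 706 bp, although its summit lay at -56 bp from its listed start, and Rpl29 at 631 bp. Just outside were Rpl17 at 1085 bp, Rps27l at 1413 bp and Rpl22 at 1464 bp in ChIP, and Rpl22 at 1366 bp, Rps27l at 1404 bp and Rps2 at 1897 bp in CUT&RUN. Some 36 genes in ChIP and 27 in CUT&RUN had no summit within 10 kb of an end. A summit lay within 10 kb at 60.4% of the 91 genes in ChIP and 70.3% in CUT&RUN. The shares of all protein-coding genes were 37.2% and 41.9%.

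Several of the genes outside the window had a peak at an annotated start inside the gene. Rpl22, which is needed for the development of αβ T cells, had a ChIP pileup of 23 (14.6 to 34.5, rank 1508) and a CUT&RUN pileup of 77 (60.8 to 96.2, rank 865), 174 and 76 bp downstream of such a start. Rps2 had 29 (19.4 to 41.6, rank 742) and 59 (44.9 to 76.1, rank 1837), 30 and 45 bp upstream of its listed start. Rpl19 had 14 and 21, and Rps27l 13 and 13. Rpl18 had peaks at its end, with 27 and 40, and a further pair at the inner start shown above, with 35 (24.4 to 48.7, rank 409) and 30 (20.2 to 42.8, rank 7487). With listed starts added to the ends, 44 genes (48.4%) had a ChIP summit, 57 (62.6%) a CUT&RUN summit and 40 (44.0%) both, against 25.1%, 29.3% and 20.1% of protein-coding genes.

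The summits lay at starts rather than at the far ends of the genes. Of the 70 genes with a listed start, 34 (48.6%) had a ChIP summit within 1 kb of a start, against 24.5% of protein-coding genes with a start. A ChIP summit within 1 kb of the far end and over 1 kb from every start lay at 1 gene (1.43%), against 1.77%. A gene could be in both counts. The CUT&RUN counts were 41 (58.6%) and 4 (5.71%), against 28.8% and 2.19%. Best-ranked ChIP summits lay a median of 84 bp upstream of the start, at -84 bp (quartiles -166 and -28, n = 29 genes), and 25 (86.2%) were upstream, against -54 bp and 65.6% over protein-coding genes. With all ChIP summits within 1 kb of a start taken in place of the best-ranked one, the median was -52.5 bp (36 summits), an alternative chosen after seeing the data. For CUT&RUN the median was -77 bp (n = 35), and 30 (85.7%) were upstream, against -70 bp and 74.5%. The exceptions downstream included Rpl26 and Rpl27 in ChIP, at 112 and 96 bp.

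**Figure D2:**
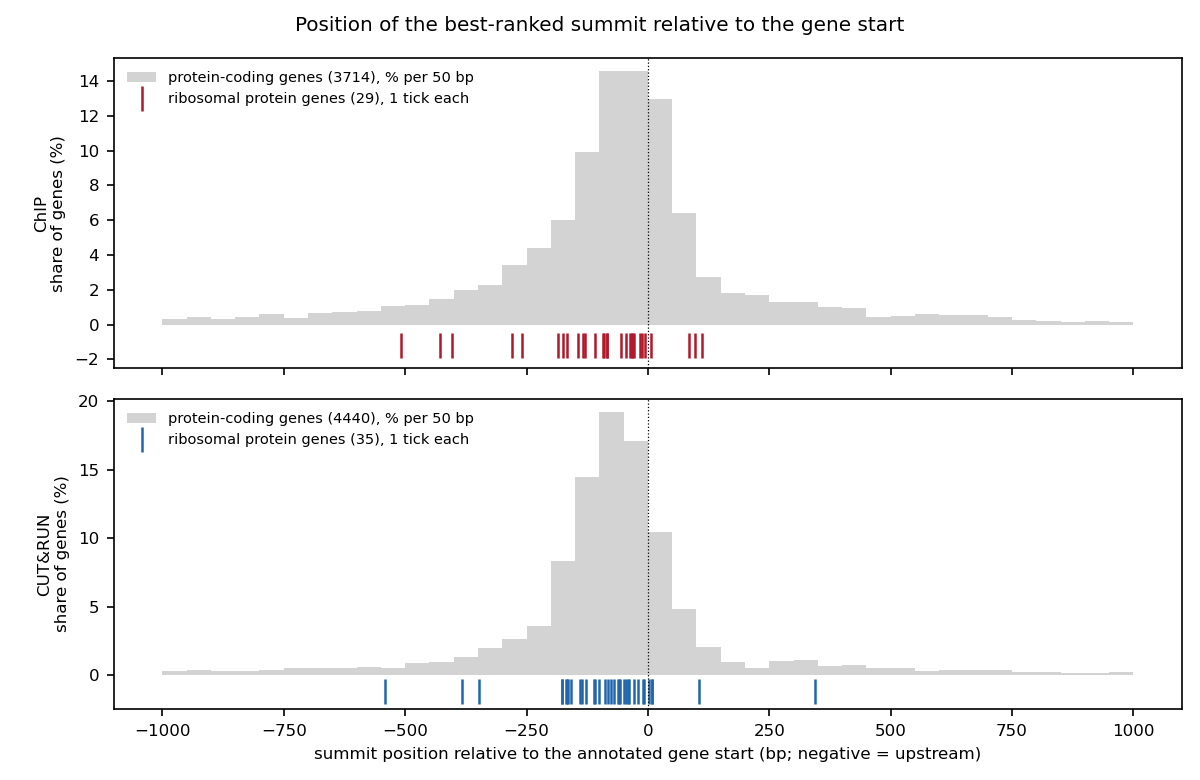
Distance in bp of the best-ranked summit from the nearest annotated start (x axis, negative is upstream) for ChIP (top, 29 genes) and CUT&RUN (bottom, 35 genes); each tick is 1 ribosomal protein gene and grey bars give the share of all protein-coding genes per 50 bp (y axis, %). The ticks gather just upstream of the start, 86.2% of them upstream in ChIP and 85.7% in CUT&RUN.

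The summits of the lists fell close together. At the 36 genes with both, the best-ranked summits were a median of 62 bp apart (range 3 to 1570), and 24 (66.7%) were within 100 bp, against 57 bp and 68.9% over the 4004 protein-coding genes with both. Peaks overlapped at 31 of the 36 genes, against 3732 of the 4004, and did not at Rps27, Rplp2, Rpl29, Rps27a and Rps29. Another gene's end lay within 1 kb of the summit in 14 of 40 genes in ChIP and 19 of 53 in CUT&RUN, and was nearer than the gene's own end in 9 and 11. Without such summits, 33 genes kept a ChIP summit, 44 a CUT&RUN summit and 27 both. These neighbour counts were not made over all protein-coding genes, so whether they are unusual here cannot be told.

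Starts and upstream sequences of the genes share features that the symbol rule did not use. A run of at least 5 pyrimidines that reached the annotated start or the 3 bases after it stood in 32 of 82 promoters (39.0%), against 16.7% of all. Grouped by summits within 1 kb of a gene end, the share was 36.7% for genes in both lists, 45.0% for those in 1 and 37.5% for those in none. The last group includes Rps2, Rpl22, Rpl19 and Rps27l, which had summits at a listed start inside the gene. Stretches of 45 bases around the start are shown for 3 genes with peaks in both lists (Rpl15, Rpl35 and Rps18) and 3 with none (Rps6, Rps10 and Rpl28), with the run in capitals.
Rpl15, chr14:18270962-18271006, minus strand: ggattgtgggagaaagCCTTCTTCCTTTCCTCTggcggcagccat
Rpl35, chr2:39005107-39005151, minus strand: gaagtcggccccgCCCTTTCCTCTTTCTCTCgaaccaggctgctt
Rps18, chr17:33955641-33955685, minus strand: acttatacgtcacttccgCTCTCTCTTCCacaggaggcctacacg
Rps6, chr4:86857343-86857387, minus strand: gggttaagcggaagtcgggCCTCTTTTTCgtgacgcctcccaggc
Rps10, chr17:27635220-27635264, minus strand: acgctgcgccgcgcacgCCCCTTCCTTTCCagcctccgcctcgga
Rpl28, chr7:4792945-4792989, plus strand: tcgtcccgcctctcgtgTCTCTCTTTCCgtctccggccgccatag

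Cores of ETS factors, which are known to bind beside RUNX proteins at T cell genes, were more frequent than RUNX cores. CCGGAA, searched on both strands (TTCCGG on the other), stood in 37 of the 82 promoters (45.1%), against 18.7% of all. Where summits of both lists lay inside the 300 bases, 12 of 20 promoters (60%) held it, against 38.1% of 2110 such promoters of protein-coding genes, and where no summit lay inside, 13 of 35 (37.1%), against 13.0%. A RUNX core stood in 7 of the 20 (35.0%), against 40%, and in 3 of the 35 (8.57%), against 19.5%. The ETS cores nearest to the summits of both lists, in genes without a RUNX core in the window, were those of Rpl11 (14 bp from the ChIP and 18 bp from the CUT&RUN summit), Rpl35 (40 and 35 bp) and Rps21 (61 and 21 bp), shown with the core in capitals.
Rpl11, chr4:136053364-136053447, minus strand: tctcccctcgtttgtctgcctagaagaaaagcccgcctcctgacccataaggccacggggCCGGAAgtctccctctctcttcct
Rpl35, chr2:39005192-39005317, minus strand: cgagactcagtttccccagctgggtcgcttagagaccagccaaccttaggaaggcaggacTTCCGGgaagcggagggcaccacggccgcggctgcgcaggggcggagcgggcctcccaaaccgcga
Rps21, chr2:180257293-180257408, plus strand: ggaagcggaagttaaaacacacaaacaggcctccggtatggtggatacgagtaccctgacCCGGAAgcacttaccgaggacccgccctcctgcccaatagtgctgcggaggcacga

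**Figure D3:**
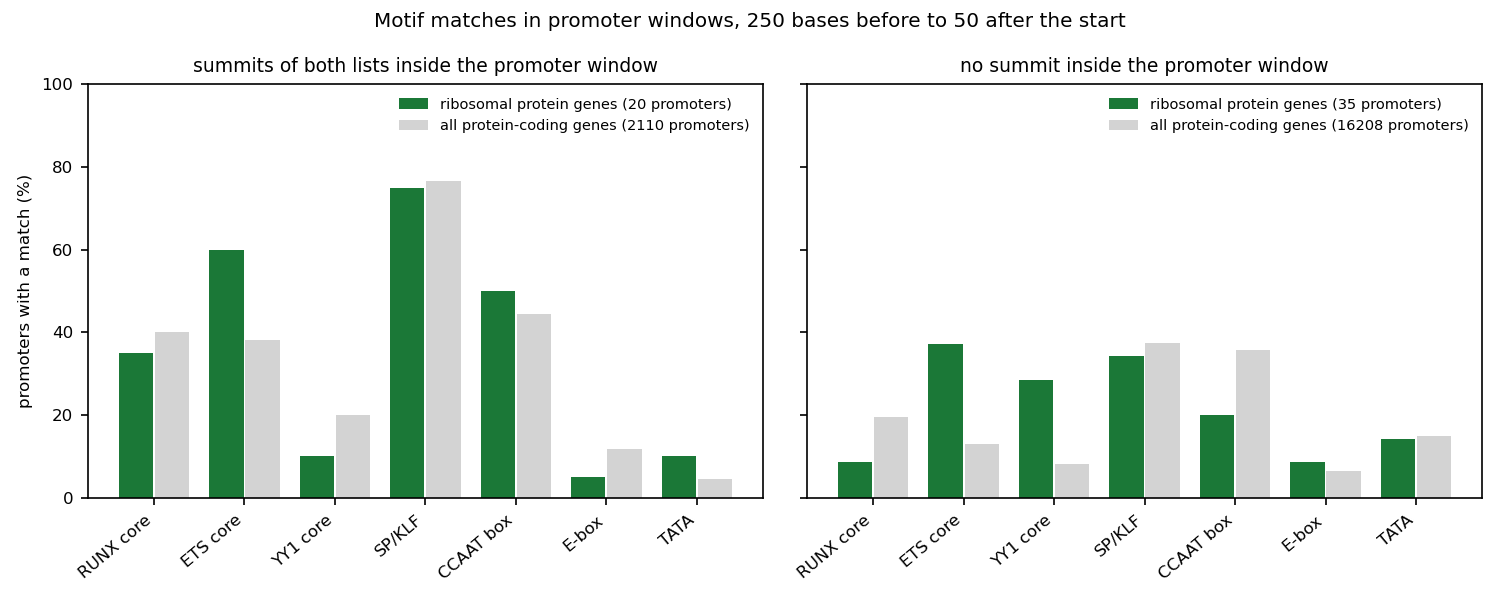
Share of promoter windows (y axis, %) with a match to each motif, for ribosomal protein genes (green) and all protein-coding genes (grey), in windows with summits of both lists inside (left) and with none inside (right). ETS cores stood in 60% of the 20 ribosomal windows with both summits and 37.1% of the 35 with none; RUNX cores in 35.0% and 8.57%.

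Other gene families of protein synthesis and turnover gave shares of the same order. Of the 78 mitochondrial ribosomal protein genes, whose products form the ribosome inside mitochondria, 47 (60.3%) had a ChIP summit, 38 (48.7%) a CUT&RUN summit and 33 (42.3%) both. Translation factor genes had 38 (53.5%), 44 (62.0%) and 34 (47.9%) of 71, and proteasome subunit genes 17 (42.5%), 19 (47.5%) and 12 (30%) of 40. Over all protein-coding genes the shares were 22.9%, 27.2% and 18.3%. CUT&RUN summits outnumbered ChIP summits at cytosolic ribosomal protein genes, 53 to 40. The same direction held over all protein-coding genes and at translation factor and proteasome subunit genes. At mitochondrial ribosomal protein genes ChIP summits outnumbered CUT&RUN summits, 47 to 38. With 1 library per assay this difference was not tested.

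**Figure D4:**
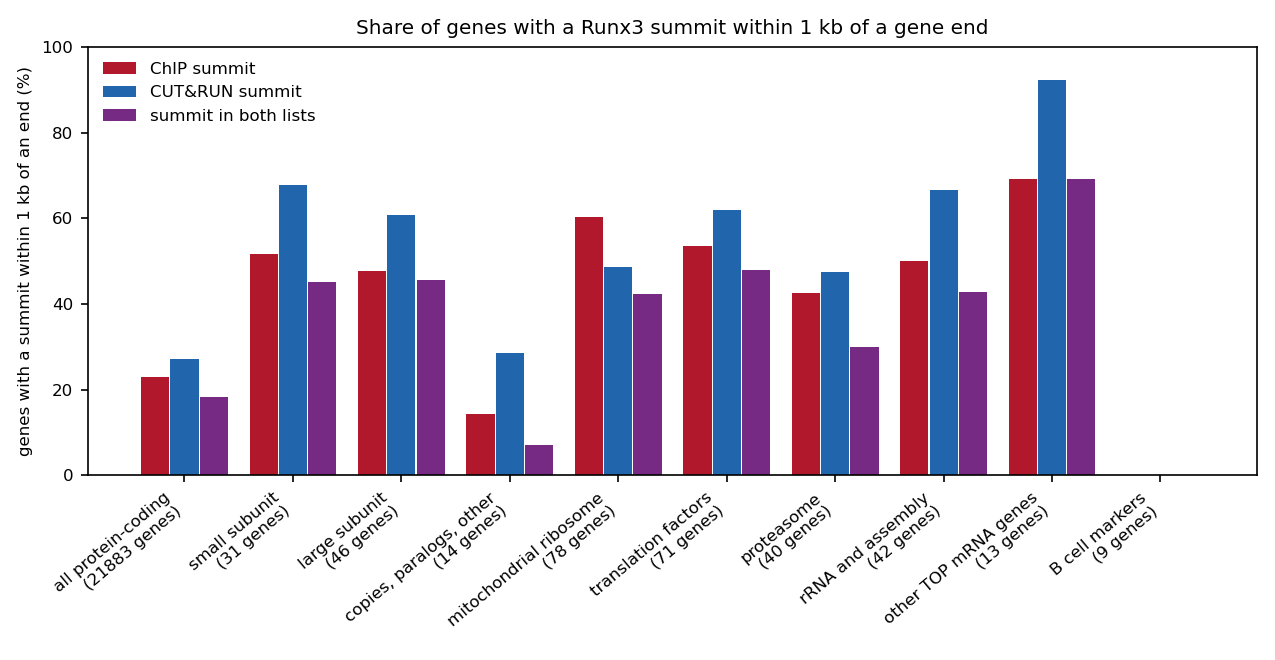
Share of genes (y axis, %) with a summit within 1 kb of an end in ChIP (red), CUT&RUN (blue) and both lists (purple), for each gene group with its number of genes. The small and large subunit groups stand at 51.6% and 47.8% in ChIP, above the 22.9% of all protein-coding genes and beside the families of translation.

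Genes that act with ribosomal proteins were counted from lists, beside shares of 22.9% (ChIP), 27.2% (CUT&RUN) and 18.3% (both) over all protein-coding genes. Of 42 genes of rRNA transcription and ribosome assembly, 21 (50%) had a ChIP summit, 28 (66.7%) a CUT&RUN summit and 18 (42.9%) both; Nop2, an rRNA methyltransferase, led both lists with 37 and 59, followed by Polr1d, a subunit of RNA polymerases I and III, with 23 in ChIP, and by Fbl, another rRNA methyltransferase, with 49 in CUT&RUN. Of 13 other genes with TOP mRNAs, 9 (69.2%), 12 (92.3%) and 9 (69.2%) did, led in both lists by Eef1g, a subunit of an elongation factor, with 22 and 55, followed by Tpt1 with 17 in ChIP and Pabpc1, a poly(A) binding protein, with 50 in CUT&RUN. Of 16 genes on a list for signalling to TOP translation, which also holds Myc and Max, 8 (50%), 9 (56.2%) and 7 (43.8%) did. Max, the partner of Myc, led them with 21 and 67, followed by Tsc1, a brake on mTOR, with 14 in ChIP alone, and by Eif4ebp2, a repressor of translation, with 37 in CUT&RUN. Of the ribosomal proteins with other symbols, Fau had 31 (21.1 to 44.0, rank 605) and 60 (45.8 to 77.2, rank 2087), as strong in ChIP as Rps12, and Rack1 had 8 in ChIP alone.

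Markers of CD8 T cells had a ChIP summit in 5 of 10 genes (50%, beside 22.9% of all protein-coding genes) and a CUT&RUN summit in 9 of 10 (90%, beside 27.2%). Cd3d, a chain of the T cell receptor complex, had 88 and 131, above every ribosomal protein gene; Cd2 followed in ChIP with 46 and Cd28 in CUT&RUN with 119. None of the 9 B cell markers and none of the 10 erythroid markers had a summit, and 2 of 12 myeloid and dendritic cell markers (16.7%, beside 27.2%) had one in CUT&RUN alone, Xcr1 with 35 and Itgam with 31. Peaks measure binding and not expression, and the part of other cell types in the peaks at ribosomal protein genes was not tested.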

How the data were processed

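Alignment used Bowtie and the mm10 build, per the submitters' processing notes. MACS2 2.1.1.20160309, per the file headers, called each library's peaks on its own, with a q cutoff of 0.05 and the whole cell extract as control for ChIP, and 1e-05 without control for CUT&RUN, keeping at most 1 fragment per position. Duplicate removal took 80.3% of ChIP and 21.4% of CUT&RUN fragments. Fragments averaged 115 bp (ChIP) and 63 bp (CUT&RUN). The deposited lists give the pileup, a coverage signal at the summit, the fold enrichment over the expected background (a ratio), and −log10 p and −log10 q values, as the authors' peak caller wrote them.

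Gene spans came from RefSeq GRCm38.p6 without strand, and starts, strands and promoter sequences from its promoter table, which matched 70 of the 91 genes; the unmatched included Rpl7, Rps20, Rpl21, Rpl34-ps1, Rpl32, Rplp1, Rpl29, Rps27a, Rpl23a, Rps29, Rpl30, Rpl8, Rpl3, Rpl36, Rps14 and Rpl17. Each gene was described by its best-ranked peak (by q, then pileup). Lists were joined by an overlap of at least 1 bp (Python 3.11.15, pandas 2.3.3, scipy 1.17.1). The search for summits was tested on simulated data.

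The members and gene lists were chosen with earlier results of these data known. Genes named with values were the 10 best-ranked of each list, those in 1 list or none, paralogs, P stalk genes, Rpsa, Rps27a and the leading genes of other lists; genes named for a start, a core or a neighbour were chosen after their values were seen. Some genes that enter the counts are not reported by name here.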

Additional observations from a re-analysis of the deposited data

How the results depend on the processing

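Of 54 alternative values, 50 stayed near the reported one under a rule for each kind of value. Counts had to stay within 1.5 times the reported count. Median pileups had to stay inside the Poisson interval of a single pileup of that size, and the RUNX share inside its binomial interval. Median summit distances had to stay within 1 standard deviation of the distances. Some counts could not change by construction, such as the CUT&RUN count under a stricter q for ChIP. The alternatives covered windows from 250 bp to 10 kb, listed starts, peak intervals in place of summits, stricter q values, and the list without copies. With the stronger 50% of each list, 26 genes (28.6%) had a ChIP summit, 28 (30.8%) a CUT&RUN summit and 16 (17.6%) both. The shares of all protein-coding genes were then 12.8%, 14.3% and 8.33%. This alternative removes peaks by construction. With overlap replaced by summits within 50 bp, 16 genes counted in place of 31. No paired analysis was possible because each assay had 1 library. ChIP pileups of 7 to 35 fragments leave wide counting intervals, so the order of most genes is not resolved. Genes without a listed peak may have signal under the authors' thresholds.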

Other observations

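Other motifs also differed between promoters of ribosomal protein genes and all promoters. ATGGCG, the core that YY1 recognises, searched on both strands, stood in 25 of 82 (30.5%), against 10.9% of all; where summits of both lists lay inside the window it stood in 2 of 20 (10%), against 20%, and where none did in 10 of 35 (28.6%), against 8.15%. CCAAT stood in 25 of 82 (30.5%), against 38.2% of all. In the same 2 groups of windows it stood in 10 of 20 (50.0%) and 7 of 35 (20%), against 44.4% and 35.8%. The median number of CpG dinucleotides per window was 21.0 at these genes and 13.0 in all promoters.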
